A study of Homo sapiens with 7 samples.

Results

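Long domains of trimethylated lysine 36 of histone H3 (H3K36me3) were examined in HCT116, an established human colorectal carcinoma cell line. The members were chosen by the measured width of the intervals called in the H3K36me3 library: 973 of 40010 intervals (2.43%) were at least 30000 bp wide. In PIXUL-ChIP-seq, cells are grown, crosslinked and sheared by ultrasound in the wells of a culture plate before chromatin immunoprecipitation and sequencing. Each mark was read in 1 library from 1 well of 200000 untreated cells, sonicated for 6 min in 100 µl, and lists of H3K4me1, H3K4me3, H3K9Ac, H3K27me3, H3K36me3 and CTCF peaks were used. There were no replicates, and the sequencing depth of each library is unknown from the lists. Where intervals are given below, they are exact 95% binomial for shares, exact Poisson for densities and order-statistic for medians. They cover counting error only, because regions of 1 library are not replicates.

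H3K36me3 is laid down by SETD2, which travels with elongating RNA polymerase II, so the mark is known from the bodies of transcribed genes and rises toward their 3′ ends. It is read by proteins such as PSIP1, MSH6 and DNMT3B, and is linked to DNA repair, splicing and the suppression of initiation inside genes. H3K4me3 and H3K9Ac mark active promoters, H3K4me1 away from promoters marks enhancers, H3K27me3 marks Polycomb-repressed chromatin, and CTCF binds insulators and loop anchors.

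CTCF peaks that lay inside the widest domains show what the domains contain besides the mark that chose them. A pattern of the CTCF core, 12 bases long with 2 bases allowed at 4 of the positions (C or G at position 4, C or T at 5, A or G at 8, G or T at 9), was searched on both strands without mismatches. It matched in 4 CTCF peaks of the 15 widest domains, and these sites are shown in hg19 on the strand of the core with the core in capitals and 9 flanking bases on each side. The FAT1 site (chr4:187508747-187508776, minus strand) lay downstream of the canonical transcript in a peak of 12.2-fold enrichment. The MYOF site (chr10:95112575-95112604, minus strand) lay in intron 32, in a peak of 10.7-fold enrichment. The FANCA sites (chr16:89819150-89819179, plus strand, and chr16:89859692-89859721, minus strand) lay in introns 30 and 11, in peaks of 8.44-fold and 8.20-fold enrichment. All 4 sites lay in a domain on a gene of the minus strand. The 30 bases were identical at both FANCA sites and occurred 69 times in hg19, whereas the FAT1 and MYOF sequences each occurred 1 time.
FAT1 site: cggagccagCCACCAGGTGGCagtatatag
MYOF site: aaatattttCCACCAGGGGGCactctatca
FANCA intron 30 site: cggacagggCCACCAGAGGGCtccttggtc
FANCA intron 11 site: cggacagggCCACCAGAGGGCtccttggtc

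The cell type label was read from H3K4me3 at transcription start sites (TSS). Of 11 colon epithelial markers, 7 had an H3K4me3 peak within 1000 bp of the TSS: EPCAM, CDH1, KRT8, KRT18, KRT19, CDX2 and HNF4A. CDX1, VIL1, LGALS4 and CEACAM5 had none. None of the 4 leukocyte markers had one, although CD68 had H3K9Ac. CDH5, ALB and GFAP also lacked it, while COL1A1 had both marks and COL3A1 and DES had neither. Over all 20162 protein-coding genes, 59.1% had H3K4me3 and 58.5% had H3K9Ac at the TSS.

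The domains spanned 42.9 Mb, which was 21.0% of the length of all H3K36me3 intervals. Their width ran from 30002 to 162381 bp with a median of 39420 bp (38461 to 40381). The fold enrichment, a linear ratio over the background of the peak caller averaged over the whole interval, had a median of 3.77 and ran from 2.96 to 8.89. The median −log10 q-value was 3.48. These values belong to the list that chose the members and are given as a description. Just inside the limit stood CARS2 (30002 bp, 3.43-fold), DDB2 (30008 bp, 3.23-fold) and SPOP (30035 bp, 3.41-fold). Just outside it stood PALB2 (29998 bp, 3.40-fold), NDC1 (29985 bp, 3.37-fold) and SNAP47 (29978 bp, 3.50-fold). The limit thus cut through intervals of much the same enrichment. The study's own limits for H3K36me3 (q-values under 1e-10 with more than 5-fold enrichment) were passed by 3 domains: PLEC, ITPRID2 and KPNB1.

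The widest domain covered 91.0% of MDN1, which encodes a giant ATPase of ribosome assembly (chr6:90351247-90513627, 162381 bp, 3.76-fold). It began 15886 bp downstream of the TSS, in intron 1, and ended 970 bp past the end of the transcript. The next, on the atypical cadherin gene FAT1 (chr4:187498913-187646736, 147824 bp, 5.36-fold), differed from the others in that its first edge lay at -1726 bp, upstream of the TSS, so that the domain ran across the promoter. TRRAP, the scaffold of histone acetyltransferase complexes, had a domain of 136099 bp from 1815 bp downstream of the TSS to 3204 bp past the canonical transcript. The ubiquitin ligase gene UBR4 had 129736 bp and the nucleoporin gene NUP98 129681 bp, which covered 94.2% and 98.2% of their genes.

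CHD2, a chromatin remodeller, held a domain of 122318 bp whose first edge (5225 bp) stood 61 bp from the downstream edge of H3K4me3, which itself lay 5164 bp from the TSS. The domain of MYOF, a ferlin of the plasma membrane, was 121573 bp wide and began 55956 bp into the gene, in intron 4. LRPPRC, which stabilises mitochondrial mRNAs, was covered over 98.6% of its length by 109447 bp at 4.62-fold. SMARCC1, a BAF complex subunit, and ACACA, the acetyl-CoA carboxylase of fatty acid synthesis, had domains of 108283 and 107894 bp with last edges at -80153 and -99260 bp from the end of the canonical transcript, but further domains followed in both genes, of 36821 bp in SMARCC1 and of 81141 bp, to 1304 bp past the end, in ACACA. The remaining 5 of the 15 widest lay on the Fanconi anaemia gene FANCA (92398 bp), BPTF of the NURF remodeller (92005 bp), the ubiquitin ligase SMURF2 (89963 bp), the GTPase DRG1 (87496 bp) and the exportin XPO6 (87421 bp). In BPTF, SMURF2 and XPO6 the first edge lay 66377, 63518 and 30677 bp from the TSS.

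**Figure D1:**
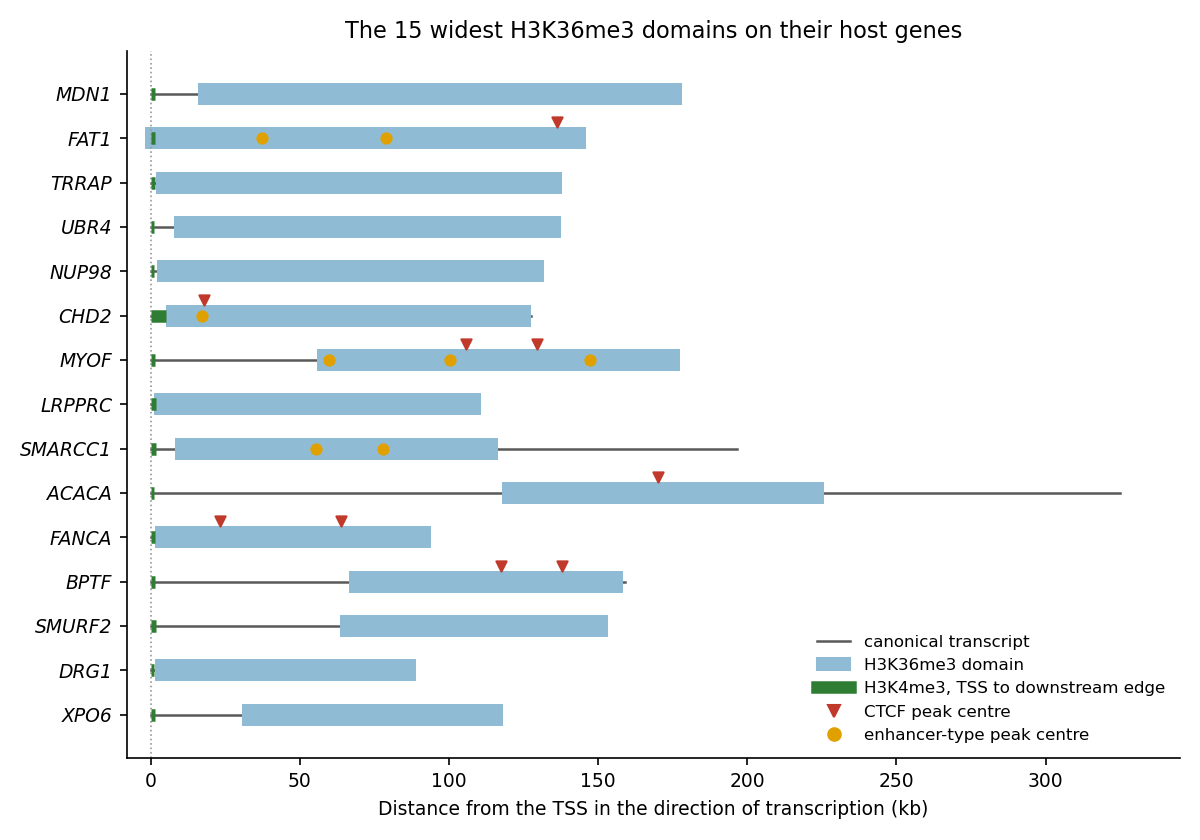
The 15 widest H3K36me3 domains (blue bars) on the canonical transcripts of their host genes (grey lines), by distance from the TSS in kb in the direction of transcription; green marks H3K4me3 from the TSS to its downstream edge, red triangles CTCF peak centres and yellow circles enhancer-type peak centres. Only FAT1 begins upstream of the TSS, and MYOF, ACACA, BPTF, SMURF2 and XPO6 begin over 30000 bp into the gene.

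The domains with the highest fold enrichment were not among the widest. The highest value, 8.89, belonged to the cytolinker gene PLEC with 31432 bp, and its first edge lay 201 bp from the TSS, in exon 1. ITPRID2 (6.58-fold, 39608 bp), the casein kinase gene CSNK1D (6.15-fold, 42708 bp), the splicing factor gene RBM39 (6.00-fold, 40185 bp) and the pyruvate kinase gene PKM (5.85-fold, 31577 bp) followed. In ITPRID2, RBM39 and PKM the domain covered 97.4%, 96.6% and 93.4% of the gene. Domains that spanned a whole gene, within 5000 bp of the TSS and of the gene end, had a median of 3.97-fold (3.93 to 4.05), and those that reached neither end 3.63-fold (3.59 to 3.68).

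Of the 973 domains, 958 (98.5%, 97.5 to 99.1) overlapped a protein-coding gene, and 752 (77.3%, 74.5 to 79.9) had at least 90% of their length in 1 host gene, taken as the gene with the largest overlap. A total of 1269 protein-coding genes had at least 1 bp in a domain, which was 6.29% of all, and 831 were covered over at least 50%. Among genes of 30000 bp or more the share was 11.0%, and among those that also had H3K4me3 at the TSS it was 15.4%. Counted per domain, hosts had a median length of 63478 bp and a median of 19 exons, and the width limit by itself favours long hosts. A domain covered a median of 66.4% of its host (64.0 to 69.6), and all H3K36me3 intervals together covered a median of 87.6% (86.0 to 89.0). Canonical exons took 9.86% of the domains' length, less than the 12.9% in intervals of 10000 to under 30000 bp and the 12.3% in narrower ones, but more than the 5.40% in all protein-coding genes. The median GC content was 41.5%, against 41.8% in intervals of 10000 to under 30000 bp.

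There were 914 distinct host genes, and 38 of them held 2 or more domains. TCF7L2, the Wnt pathway transcription factor of the colon epithelium, held the most, with 4 domains of 74360, 43273, 54861 and 38540 bp in the order of transcription. The first began 1783 bp from the TSS and the last ended 1195 bp past the gene. The kinase gene PRKDC held domains of 85841 and 72307 bp, HUWE1 of 63353 and 56791 bp and INO80 of 56880 and 32158 bp. Gaps of up to 5000 bp beside a domain numbered 956 and had a median of 1863 bp, with 1186 bp as the smallest. Joining all H3K36me3 intervals, shorter ones included, across gaps of up to 5000 bp gave 2583 domains.

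The number of domains per chromosome ran from 104 on chromosome 1 to 6 on chromosome X, apart from chromosome Y, which had 0. Chromosome 17 had 75 (0.924 per Mb), chromosome 16 61 (0.675 per Mb) and chromosome 18 only 8 (0.102 per Mb). Of the protein-coding genes of 30000 bp or more, 19.7% on chromosome 22, 18.9% on chromosome 17, 17.9% on chromosome 16, 3.59% on chromosome 18 and 1.76% on chromosome X had at least 1 bp in a domain. The copy number of the chromosomes was not analysed, so its part in these differences cannot be told.

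Measured from the host's TSS, nearly all domains began downstream, as did shorter H3K36me3 intervals. The host was the gene with the largest overlap, and 77.3% of domains lay at least 90% inside it. That choice by itself favours a first edge downstream of the host's TSS, so the share is a description. The first edge, on the side of the host's TSS, lay downstream of the canonical TSS in 946 of 958 domains (98.7%, 97.8 to 99.4), at a median of 5240 bp (4061 to 7093). In 466 (48.6%, 45.4 to 51.9) it lay within 5000 bp of the TSS, and in 29 (3.03%) within 1000 bp. It fell in intron 1 in 50.4% (47.2 to 53.6) and in exon 1 in 2 domains. In intervals of 10000 to under 30000 bp the median was 13309 bp (12069 to 14541), and 36.2% (34.7 to 37.6) began within 5000 bp. These intervals had a median width of 14974 bp in hosts of a median of 52912 bp. Width chose the long domains, and a wider interval by itself tends to begin nearer the TSS of its host. Of the intervals of 10000 to under 30000 bp, 98.4% (98.0 to 98.8) began downstream of the TSS and 3.06% (2.57 to 3.61) within 1000 bp, about the shares of the long domains. Narrower intervals had 97.7% (97.5 to 97.9) downstream and 1.15% (1.04 to 1.27) within 1000 bp. The distance depends on the TSS taken: from the annotated TSS nearest the edge, the median was 980 bp and 64.4% of domains began downstream, a choice that by its construction gives the smallest distance.

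Among domains wholly inside 1 host gene, the edge lay nearest the TSS in ENSG00000285920, a gene model whose domain also overlapped OIP5 (-632 bp), in ENSG00000283515, whose domain also overlapped ZNF544 (770 bp), and in MTAP, which encodes methylthioadenosine phosphorylase (786 bp). The farthest of these lay in DST, the dystonin gene, where domains of 38673 and 49561 bp began 436637 and 317162 bp from the canonical TSS, in introns 69 and 22. Over all domains, the farthest first edge was that of PDE4B, 550776 bp from the canonical TSS, in a domain of 30988 bp. The PDE4B TSS also had no H3K4me3 peak within 1000 bp. A domain of 37725 bp over olfactory receptor genes, among them OR51B5 and OR51B2, began 322183 bp from the TSS of the long gene model ENSG00000239920 and had no H3K4me3 at that TSS. The same gene model held domains of 60249 and 33915 bp, and the 3 domains, by width, overlapped 7, 6 and 5 protein-coding gene models, more than any others. Next by width came a domain of 44427 bp over ENTPD7, CUTC and COX15 and 1 of 40953 bp over SON and DONSON, with 4 gene models each.

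At the other end, the last edge lay a median of 1208 bp (993 to 1465) past the end of the canonical transcript, and 64.0% (60.9 to 67.0) of domains passed that end. From the annotated end of the whole gene the median was 730 bp (448 to 1000), and 57.5% (54.3 to 60.7) passed it. In intervals of 10000 to under 30000 bp the median was -2228 bp, before the end of the canonical transcript. Here too, a wider interval by itself tends to reach nearer the end of its host, and width chose the domains. By position on the host, 265 domains (27.7%) spanned the whole gene, 201 (21.0%) lay at the TSS side, 219 (22.9%) at the 3′ side and 273 (28.5%) inside. Host genes of the first class had a median length of 41334 bp and those of the last 104478 bp.

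The first edge lay close to where H3K4me3 stopped. Of the 466 domains that began within 5000 bp of the TSS, 463 (99.4%, 98.1 to 99.9) had an H3K4me3 peak at the host's TSS. This was near the 98.8% (98.1 to 99.3) of intervals of 10000 to under 30000 bp that began as close, and narrower ones had 94.7% (94.0 to 95.3). In the long domains the downstream edge of the H3K4me3 peak lay at a median of 1391 bp (1365 to 1419) and the first edge of the domain at 1572 bp (1509 to 1630). The gap between them had a median of 160 bp (81.0 to 233), and 286 (61.8%, 57.2 to 66.2) lay within 500 bp either way. With H3K9Ac the median was -362 bp (-454 to -296), so the domains mostly overlapped the acetylated stretch. In PIEZO1 and KITLG the domain reached into H3K4me3 (gaps of -1264 and -2213 bp), whereas in TRRAP, FANCA and DRG1 it started 261, 74 and 159 bp beyond it. Among the 15 widest, FAT1 and LRPPRC also reached into H3K4me3, with first edges at -1726 and 1312 bp and H3K4me3 edges at 1536 and 1670 bp. NUP98 began at 2039 bp, beyond its H3K4me3 edge at 1244 bp. KITLG, the widest domain outside the 15 named above, was chosen after its value was seen. In intervals of 10000 to under 30000 bp the gap had a median of 306 bp (273 to 337). There 56.8% (54.3 to 59.3) lay within 500 bp, an interval that overlaps that of the domains. In narrower ones the median was 712 bp (680 to 751) and the share 34.1% (32.7 to 35.5). The gap also grows with the window that selects the edges, from 74.0 bp in a narrower window to 274 bp for edges within 10000 bp.

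**Figure D2:**
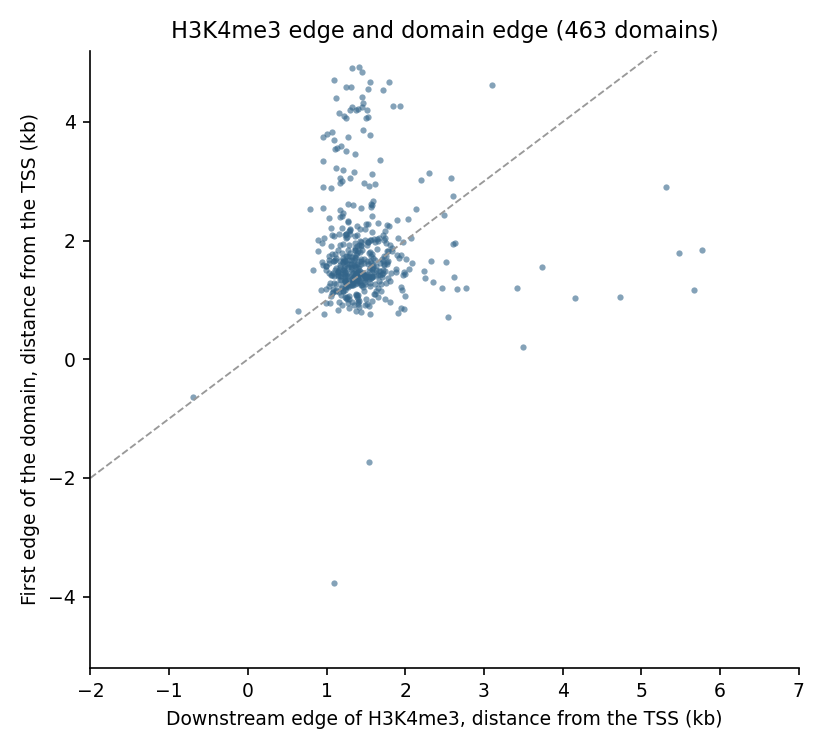
First edge of the domain against the downstream edge of H3K4me3, both as distance from the TSS in kb, for the 463 domains that began within 5000 bp of a TSS with H3K4me3; each point is 1 domain and the dashed line marks equal distances. Most points gather near 1391 bp on the horizontal and 1572 bp on the vertical axis.

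Host genes carried active promoters. H3K4me3 lay within 1000 bp of the TSS in 892 of 914 (97.6%, 96.4 to 98.5) and H3K9Ac in 897 (98.1%, 97.0 to 98.9), against the 59.1% and 58.5% of all protein-coding genes. H3K27me3 lay at 2 of the 914 (0.219%), against 1.22% of all. These shares were close to those of the hosts of 10000 to under 30000 bp intervals (96.8% for both H3K4me3 and H3K9Ac), so they do not set the long domains apart.

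Inside the domains themselves H3K4me3 mostly stayed at the rim. H3K4me3 overlapped 226 domains (23.2%, 20.6 to 26.0) and H3K9Ac 410 (42.1%, 39.0 to 45.3), against 13.6% and 28.3% of intervals of 10000 to under 30000 bp and 2.96% and 8.84% of narrower ones, which span less sequence. Of the 240 overlaps with H3K4me3, 97.1% reached past an edge of the domain and 92.9% contained a protein-coding TSS. When the centre of the peak had to lie inside, the shares were 1.64% and 4.93%. H3K27me3 overlapped 3 domains (0.308%, 0.0636 to 0.898), against 0.0667% (0.0138 to 0.195) of intervals of 10000 to under 30000 bp and 0.124% (0.0901 to 0.168) of narrower ones. The 3 domains lay on KNTC1, a kinetochore gene (a peak of 294 bp, 4.01-fold), CDC27 of the anaphase-promoting complex (2166 bp at 2.40-fold and 535 bp at 2.27-fold) and the corepressor gene CTBP2 (1395 bp, 3.77-fold).

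Neighbouring genes that shared a domain were mostly convergent. In 67 pairs of neighbouring genes, both genes had at least 50% of their canonical transcript in the same domain, and 56 of these were convergent, 8 tandem and 3 divergent. In 50 of the 67 pairs both genes had H3K4me3 at the TSS. Of the 50, 49 (98.0%, 89.4 to 99.9) were convergent, 1 was tandem and 0 divergent, which allows a share of up to 7.11%. Among all 3301 neighbouring pairs up to 10000 bp apart with H3K4me3 at both TSSs, 926 (28.1%, 26.5 to 29.6) were convergent, 1213 (36.7%) tandem and 1162 (35.2%) divergent. The pairs within a domain were not limited by distance, and RBM4 and RBM4B lay 18529 bp apart. A pair in 1 domain is convergent wherever the domain stops at both promoters, so the share restates the position of the first edge.

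The widest domains on such pairs, chosen after their values were seen, covered DRG1 and EIF4ENIF1 (87496 bp), ERP29 and NAA25 (81849 bp), ABCE1 and OTUD4 (74789 bp), PTCD3 and IMMT (73919 bp) and PFKP and PITRM1 (73315 bp). The transcripts of ITPR3, an inositol trisphosphate receptor, and UQCC2 ended 201 bp apart within a domain of 70108 bp. CLTC, the clathrin heavy chain gene, and PTRH2 ended 351 bp apart within 63218 bp at 5.19-fold. The tandem pair was ATRAID and CAD, 211 bp apart in 32125 bp.

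**Figure D3:**
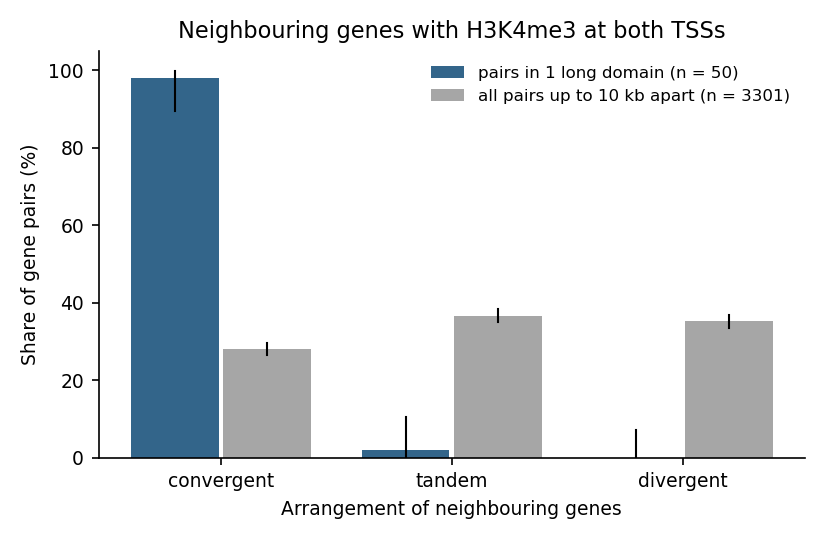
Share of neighbouring gene pairs by arrangement (%), for 50 pairs within 1 long domain at any distance (blue) and 3301 pairs up to 10000 bp apart (grey), all with H3K4me3 at both TSSs. Lines are exact 95% binomial intervals. Convergent pairs make up 98.0% within domains and 28.1% of all pairs.

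Enhancer-type peaks were rare inside the domains relative to the parts of the same genes without H3K36me3. These were H3K4me1 peaks past the study's limits (q-values under 1e-03 with more than 2-fold enrichment) that overlapped no H3K4me3 peak and whose centre lay over 1000 bp from a protein-coding TSS. The domains held 248, or 5.79 per Mb (5.09 to 6.55), in 193 domains (19.8%, 17.4 to 22.5). Of the 248 peaks, 8 (3.23%) overlapped H3K9Ac, a share within counting error of the 4.31% of all enhancer-type peaks. In the parts of the host genes outside every H3K36me3 interval and over 1000 bp from a TSS, there were 431 enhancer-type peaks in 20.3 Mb, or 21.2 per Mb (19.3 to 23.3). The ratio of the density there to that in the domains was 3.66 (3.12 to 4.29), and over 5000 bp from a TSS it was 3.87 (3.30 to 4.55). In host genes inside shorter H3K36me3 intervals there were 8.06 per Mb (6.56 to 9.79), a ratio of only 1.39 (1.09 to 1.76). The gaps beside the domains had 22.5 per Mb (16.2 to 30.4). Intervals of 10000 to under 30000 bp had 6.44 per Mb (5.88 to 7.05), against 5.80 per Mb (5.10 to 6.57) in the domains at the same distance from TSSs, so the intervals overlap. All protein-coding genes outside H3K36me3 had 9.06 per Mb (8.88 to 9.24) and the genome 6.61. With the limits dropped for all of these marks at once, the domains held 12.8 per Mb and the ratio was 2.63.

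BAIAP2, an adaptor of actin dynamics, and AXIN2, a negative regulator and target of Wnt signalling, had the most enhancer-type peaks, with 4 each. In BAIAP2 they lay 22594, 30546, 38330 and 60614 bp from the TSS, and the last, 14026 bp wide at 10.7-fold, also carried H3K9Ac. In AXIN2, whose domain was 30982 bp wide, they lay between 13398 and 29288 bp from the TSS with 3.40-fold to 4.29-fold enrichment, all in introns. MYOF, NPLOC4, which encodes a cofactor of the p97 ATPase, and the ion channel gene PIEZO1 had 3 each, as did the narrower domains of DAGLB, TGFBR2 and MLLT10. In MYOF the widest of them (14586 bp, 6.12-fold) was centred 59802 bp from the TSS, near the first edge of the domain. Of the 215 enhancer-type peaks within a canonical transcript, 194 (90.2%, 85.5 to 93.9) were centred in an intron. Exons took 9.86% of the domains' whole length, which includes parts outside canonical transcripts, so the shares have different bases.

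CTCF peaks differed less, and not in 1 direction. The study states no limits for CTCF, so those it gives for H3K36me3 were applied. There were 377 inside, or 8.79 per Mb (7.93 to 9.73), in 315 domains (32.4%, 29.4 to 35.4). Over 1000 bp from TSSs, where all ratios were taken, the domains had 8.68 per Mb (7.82 to 9.61). The host genes outside H3K36me3 had 10.1 per Mb (8.76 to 11.6), a ratio of 1.16 (0.976 to 1.38) whose interval includes 1. For domains of at least 20000 bp the ratio was 1.0 (0.890 to 1.13) and for those of at least 40000 bp 1.5 (1.16 to 1.93). Intervals of 10000 to under 30000 bp had 11.9 per Mb (11.2 to 12.8), a ratio of 1.38 (1.22 to 1.56). The gaps beside the domains had 13.9 per Mb (9.09 to 20.4), a ratio of 1.60 (1.03 to 2.39), whereas host genes in shorter H3K36me3 intervals had 5.34 per Mb (4.14 to 6.79), a ratio of 0.616 (0.468 to 0.801). The genome had 7.93 per Mb. With all deposited CTCF peaks the domains held 17.2 per Mb.

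**Figure D4:**
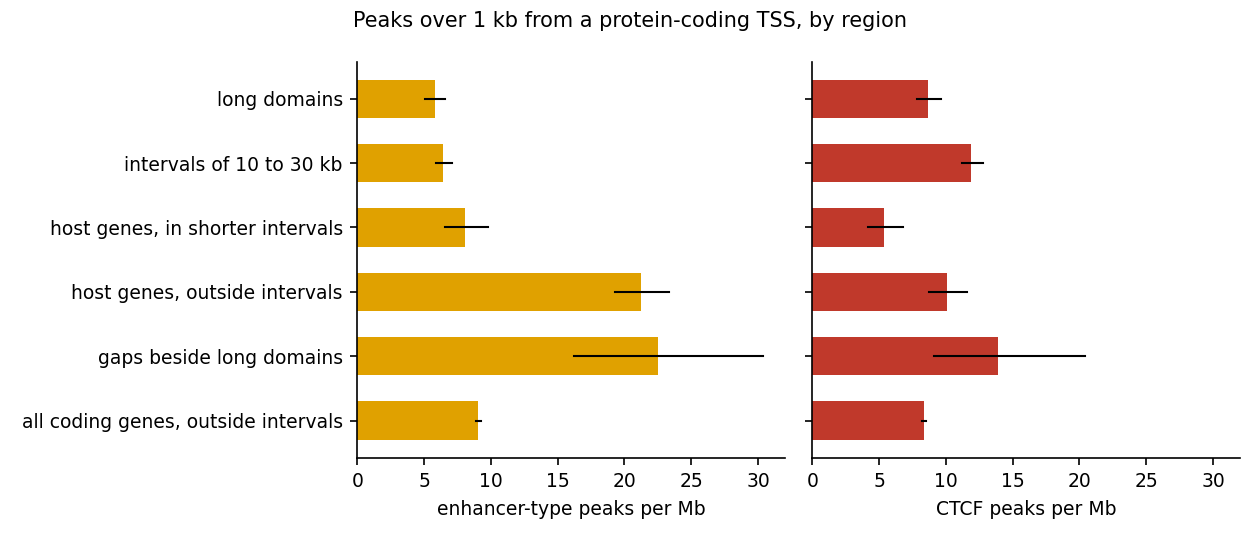
Enhancer-type peaks (left) and CTCF peaks (right) per Mb in long domains, in other H3K36me3 intervals and outside them, all over 1 kb from protein-coding TSSs; lines are exact 95% Poisson intervals. Enhancer-type peaks number 5.80 per Mb in the domains and 21.2 in the same genes outside H3K36me3, CTCF peaks 8.68 and 10.1.

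The CTCF peaks lay a median of 11128 bp (9935 to 12359) from the nearer edge of the domain. Their median fold enrichment was 9.81 (9.32 to 10.4), against 10.4 (10.3 to 10.5) over all 24536 CTCF peaks. The core pattern matched in 89 of 377 (23.6%, 19.4 to 28.2), against 22.4% of all CTCF peaks. Of the 88 peaks with a core in a domain with a host gene, 49 had it on the strand of the host and 39 on the other (55.7%, 44.7 to 66.3), a split within counting error of equal shares. Of the 321 CTCF peaks within a canonical transcript, 280 (87.2%, 83.1 to 90.7) were centred in an intron. The 9.86% of exons is a share of the domains' whole length, parts outside canonical transcripts included, so it has another base.

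HM13, which encodes signal peptide peptidase, and the tubulin cofactor gene TBCD held 4 CTCF peaks each. In HM13 these lay 43154, 46083, 48589 and 55162 bp from the TSS, toward the 3′ end, with 8.33-fold to 17.8-fold enrichment. In TBCD they lay 15303, 23089, 25885 and 29941 bp from the TSS, in introns 4, 6 and 7, with 9.80-fold to 15-fold enrichment. PIEZO1, RPN2, a subunit of oligosaccharyltransferase, and CSNK1D held 3 each, as did narrower domains, among them those of POLR3E and NIBAN2. The PIEZO1 peak at 48025 bp had 20.9-fold enrichment. Of the 15 widest domains, those on MDN1, TRRAP, UBR4, NUP98, LRPPRC, SMURF2, DRG1 and XPO6 held neither a CTCF peak nor an enhancer-type peak.

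Under 50% of the length lay in protein-coding genes for 21 domains (2.16%, 1.34 to 3.28). The widest of them covered the non-coding gene LINC02832 (72509 bp), the pseudogene SUZ12P1 beside CRLF3 (72127 bp) and MIR100HG, the host of MIR100, MIRLET7A2 and MIR125B1 (68642 bp). PVT1 had 52779 bp, and LINC-PINT had domains of 45697 and 45135 bp. A domain of 44755 bp overlapped RPE65 over 9.04% of its length and otherwise lay outside protein-coding genes. The other 3 of the 10 widest lay on SMG1 pseudogenes, SMG1P2 (50606 bp), SMG1P3 beside NPIPB3 (47702 bp) and SMG1P4 beside NPIPB4 (47569 bp). These 3 matched other places in hg19 over 100% of their length at an identity of at least 95%, so reads of 1 copy may be placed at another.

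Such copies covered at least 50% of 19 domains (1.95%, 1.18 to 3.03), among them those of NBPF20, SMG1, PMS2 and DDX11, and NOMO1, NOMO2 and NOMO3 over 100% of their length. Of the 21 domains with under 50% of their length in protein-coding genes, 7 were of this kind. Without the 19 domains, each recomputed result that had an interval stayed within it. The number of covered genes, which had none, was 1252, within 1.5 times of the main value.

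Gene lists were read by the number of members with at least 1 bp in a domain, and were chosen with earlier results known, so the counts stand beside the 6.29% of all protein-coding genes, the 11.0% of those of 30000 bp or more and the 15.4% of such genes with H3K4me3 and are not tested. Of the H3K36 methyltransferase genes, 2 of 7 were covered, NSD3 over 29.6% (a domain of 33326 bp) and NSD2 over 13.4%, by a domain of 30395 bp with NELFA as its host, while SETD2 itself had H3K36me3 over 48.3% of its length and no long domain. A list drawn up for demethylases of H3K36 held 8 genes, but the activity of each enzyme on H3K36 was not checked. Of the 8, RIOX2 was covered over 82.8% (33203 bp) and KDM2B over 10.7%, by a domain of 31323 bp with RNF34 as its host. Of 12 reader genes 5 were covered: PSIP1 (50545 bp), MORF4L1 (38517 bp), GLYR1 (34280 bp), DNMT3B (31273 bp) and MSH6 (32342 bp, with FBXO11 as its host).

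Of 21 genes of RNA polymerase II and elongation, 9 were covered. SUPT6H, a histone chaperone of elongation, lay over 96.2% of its length in a domain of 40938 bp, SUPT16H over 95.2% and the polymerase subunit gene POLR2B over 89.2%, in a domain of 50100 bp. PAF1, LEO1, CDC73 and RTF1 of the PAF complex and the kinase gene CDK12 were also covered, PAF1 by a domain with SAMD4B as its host. Of 18 chromatin remodellers 9 were covered, CHD1, CHD2, CHD4, CHD8, SMARCA4, SMARCA5, ARID1A, BPTF and INO80, with SMARCA5 over 93.0%. Of 17 DNA repair genes 8 were covered: FANCA (98.0%), PRKDC (83.8%), RIF1 (61.4%), BRCA1 (41.4%), FANCD2 (38.6%), BLM (38.2%), RAD50 (34.4%) and TP53BP1 (13.8%), the last by a domain with TUBGCP4 as its host. ATM had H3K36me3 over 72.9% of its length in shorter intervals.

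Nuclear transport genes had the largest share of the lists, 16 of 19 (84.2%), with a median of 67.8% of the gene in long domains. IPO7 (98.5%), NUP98 (98.2%), NUP155 (97.6%), XPO5 (97.4%), TPR (97.1%), KPNB1 (95.4%) and XPO1 (94.5%) were covered nearly throughout. NUP205, RANBP2, NUP160, TNPO1, IPO5, IPO9, TNPO3, XPO7 and NUP153 were covered over 88.5% to 44.7%. XPO4, IPO8 and IPO11 had no long domain but H3K36me3 over 61.8%, 58.8% and 43.9% of the gene. Of 13 large ubiquitin ligase genes 7 were covered, among them UBR4 (94.2%), HUWE1 (77.7%), TRIP12 (20.9%), UBR1 (18.6%) and HERC2 (15.4%). Of 14 very long neuronal and adhesion genes, such as CSMD1, LRP1B and CNTNAP2, 0 were covered. Among these 3 had H3K4me3 at the TSS.

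**Figure D5:**
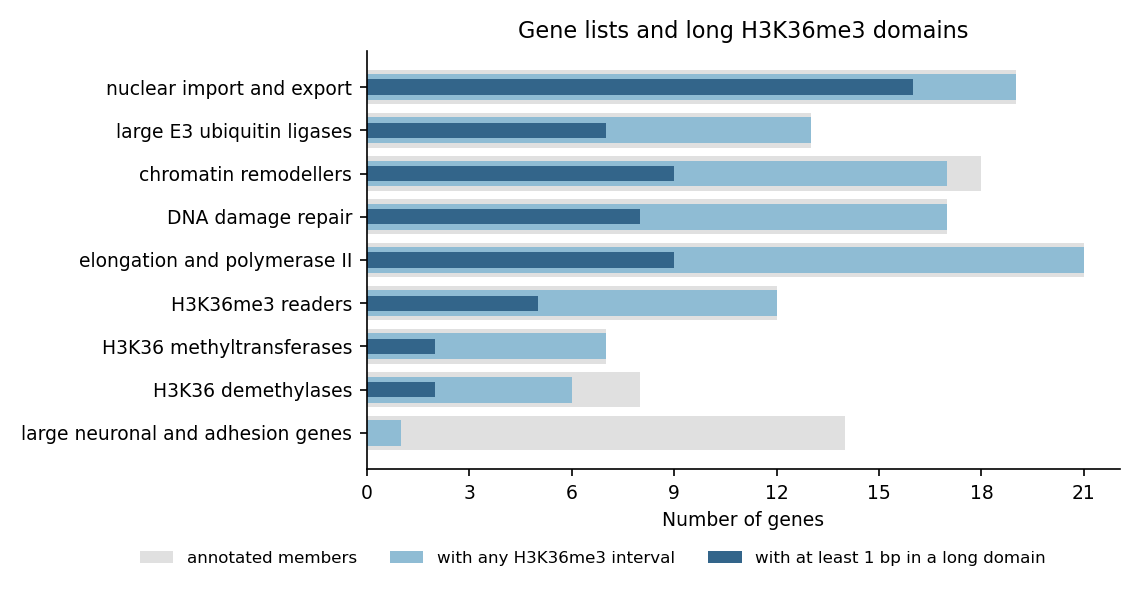
Number of genes per list that were annotated (grey), had any H3K36me3 interval (light blue) and had at least 1 bp in a long domain (dark blue). Nuclear transport genes have 16 of 19 in a long domain and neuronal and adhesion genes 0 of 14.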

How the data were processed

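PIXUL-ChIP-seq libraries of HCT116 cells were mapped to marks by the antibody in the labels, 1 library per mark. Of 7 libraries, H3K27Ac was not analysed here. Alignment (BWA 0.7.12, hg19) and peak calling (MACS2, broad mode, cutoff 0.1) were done by the authors, while the submitters' processing notes also name SAMtools 0.1.19, bcl2fastq 2.20.0.442 and MACS 1.4.2. Peaks were called per library. The fold enrichment that the authors deposited is a linear ratio over the caller's background. Significance was deposited by the authors as a −log10 q-value for the whole interval. The deposited −log10 p-value and the deposited score were not used. The labels describe removal of PCR duplicates by molecular identifiers.

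H3K36me3 intervals entered unfiltered, and other marks past the limits of the study's methods. These name no limit for CTCF, which was given that of H3K36me3 here. Overlap required 1 bp. Genes came from GENCODE 44 on hg19 (20162 protein-coding, 19881 with a canonical transcript, whose TSS was used). Near-identical copies were searched with minimap2 2.31. The scripts ran on Python 3.11.15 with pandas 2.3.3, numpy 2.4.6, pyfaidx 0.9.0.4, scipy 1.17.1 and matplotlib 3.10.9, beside bedtools 2.31.1 and samtools 1.23.1. The interval functions were tested on simulated data and against bedtools.

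Members and lists were chosen with earlier results of these data known. Named domains were the 15 widest, the 5 highest in fold enrichment, the 3 on each side of the limit, the 5 with most CTCF and the 5 with most enhancer-type peaks (ties by width), the 3 nearest to and farthest from a TSS among those inside 1 host gene, the 5 over most genes, up to 10 mostly outside protein-coding genes, up to 10 with H3K27me3, and covered list members. Other named domains (gene pairs, ties, several domains in 1 host, near-identical copies, KITLG and PDE4B) were chosen after their values were seen. PECAM1, an endothelial marker, found no match in the annotation. No test between conditions was possible. Alternatives changed the width limit, the limits of the other marks, the merging of intervals, the TSS and the gene set.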

Additional observations from a re-analysis of the deposited data

How the results depend on the processing

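No paired analysis was possible because only 1 library existed for every mark. Of 106 alternative values, 66 stayed within the interval of the main value or, for counts, within 1.5 times of it. The other 40 did not. Some of the 66 say nothing about stability. Merging within 1000 bp left the number and length of the domains as they were, and the smallest gap beside a domain was 1186 bp. A fold limit 1.5 times as high removed no enhancer-type peak inside. The alternatives for the H3K4me3 gap, for gene pairs, for domains without near-identical copies and for the canonical transcript as host extent were added after the data were seen.

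A width limit of 20000 bp gave 2103 domains over 70.0 Mb and 2522 genes, a median first edge of 7248 bp with 45.4% within 5000 bp of the TSS, and 9.87 CTCF peaks per Mb with a ratio of 1.0 outside to inside. A limit of 40000 bp gave 464 domains over 25.4 Mb, 618 genes, 7.30 CTCF peaks per Mb with a ratio of 1.5 outside to inside, and 100% convergent pairs. The study's limits for H3K36me3 left 3 domains over 0.109 Mb. Merging within 5000 bp gave 2583 domains over 140 Mb, 4146 genes, a median first edge of 2684 bp and 86.5% downstream of the TSS. All annotated genes numbered 2118, and genes covered over at least 50% numbered 831.

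From the 5′ end of the gene the median first edge was 9638 bp, 99.5% were downstream and 42.5% within 5000 bp. From the nearest annotated TSS these were 980 bp, 64.4% and 72.3%. With the canonical transcript as host extent 99.6% were downstream. For edges in a narrower window the median gap to H3K4me3 was 74.0 bp with 69.3% within 500 bp, and for edges within 10000 bp 274 bp with 53.7%. With all deposited peaks of the other marks there were 12.8 enhancer-type peaks per Mb (ratio 2.63), 17.2 CTCF peaks per Mb and H3K9Ac at 57.7% of domains. A fold limit 1.5 times as high gave 7.37 CTCF peaks per Mb, and the TSSs of any transcript 4.81 enhancer-type peaks per Mb. With peak centres inside, H3K4me3 was at 1.64% and H3K9Ac at 4.93% of domains. The cause of these changes was not tested.

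Depth is unknown from the lists and can set how wide an interval is called and where it breaks. The gene models include read-through transcripts, which move the host, its TSS and its end. Enhancer-type peaks rest on H3K4me1 without H3K27Ac. With 1 library per mark, no difference between regions was checked in a replicate.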
